A study of Prunus dulcis and Malus domestica and Olea europaea with 8 samples.

Results

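Spinach (Spinacia oleracea) was the leafy vegetable among 8 plant-based foods whose small RNA was sequenced, with 1 library per food. The spinach library was described as the share of its miRNA counts that fell on each of 209 miRNA genes and on each of 88 families, a family being all genes with the same number after MIR. The shares were set against those of the 7 other foods: tomato (Solanum lycopersicum), almond (Prunus dulcis), apple (Malus domestica), olive (Olea europaea), orange (Citrus sinensis), pear (Pyrus communis) and walnut (Juglans regia). Per the study's methods, which do not mention almond, the foods were bought in supermarkets and used raw. The labels name the tissue of every sample as the edible portion, with an input of 0.1 g for spinach and the other foods except almond and walnut, for which they give 0.5 g, while the study's methods give walnut a smaller mass than that. The table held miRNA genes only, so that the tissue could not be checked against leaf marker genes.

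Plant miRNAs are cut from hairpin precursors by the enzyme DCL1, loaded onto an ARGONAUTE protein and paired with messenger RNAs, which are then cut or translated less. Many families are shared by most flowering plants and act on transcription factors that set leaf shape, growth phase and hormone responses. Others act on nutrient transporters, on copper proteins or on immune receptors, and many are found in a few plant lineages only.

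The authors assigned the reads of every food to miRNA genes of peach (Prunus persica), so a spinach miRNA was counted only as far as it resembled a peach one. Peach belongs to the same family as almond, apple and pear, and a low count in spinach through lower abundance cannot be told apart from one through a sequence that differs from peach. Genes of 1 family can have near-identical mature sequences, and how reads that matched several copies were divided is not known in detail, so that values of single copies are less certain than family sums. There was no replicate of any food. The intervals given are exact 95% intervals that cover counting error only, and PCR copies of a molecule were counted as separate reads.

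The spinach library held 54924 counts, against 39249 (walnut) to 212021 (apple) in the other foods. At this depth a gene without a count in spinach may still have had a share of up to 0.00546% (3 counts). In all 8 libraries 22 genes had no count. Spinach counts on the 29 genes of the table that have no peach miRBase name made up 20.8% of the library, nearly all of them on MIR396.

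Mature sequences were at hand for 2 forms of the miR482 family, the family that stood below the other foods in spinach. They are shown because MIR482c took the few spinach counts of this family and MIR482f took none. This family cuts messenger RNAs of NLR immune receptors. The capitals mark the seed, bases 2 to 8 from the 5′ end.
miR482f: uCUUUCCUacuccacccauucc
miR482c-5p: gGAAUGGGcuguuugggaug
The seeds of the 2 forms differ. The form miR482f has 22 bases and miR482c-5p has 20. Per the study, miR482c takes in another mature sequence besides miR482c-5p. The spinach counts of MIR482c can therefore not be tied to the form shown.

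In spinach 69 of the 209 genes had at least 1 count, against 68 (walnut) to 123 (almond) in the other foods. With each library thinned at random to 39249 counts, 64.3 genes remained in spinach on average, fewer than in any other library, where 66.1 (apple) to 116 (almond) remained. Only 33 genes reached 10 counts in spinach, and the 36 genes below that held 110 counts together. The 3 highest genes, MIR159, MIR396 and MIR162, held 66.6% of the library. The other 18336 counts are what the rest of the description is about.

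It took 17 genes to reach 99% of the spinach counts, against 19 to 48 genes in the other foods. For 90% it took 8 genes in spinach, 5 in apple, 7 in tomato and 9 to 15 in the other 5 foods. The 3 highest genes held more in apple (79.1%) and orange (70.1%) than in spinach. The tail of low genes was short in spinach, but nearly as short in apple and walnut. At equal depth 64.3 genes remained in spinach, 66.1 in apple and 68 in walnut. Walnut had 34 genes below 10 counts, against 36 in spinach. Of the genes counted in spinach, 19 were also counted in each of the 7 other foods, and 1 was counted in spinach only. This was mir-399 (ENSRNA050003595, peach NCBIv2 G3:2177110-2177220, minus strand), with 9 counts or 0.0164% of the library (0.00749% to 0.0311%).

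**Figure D1:**
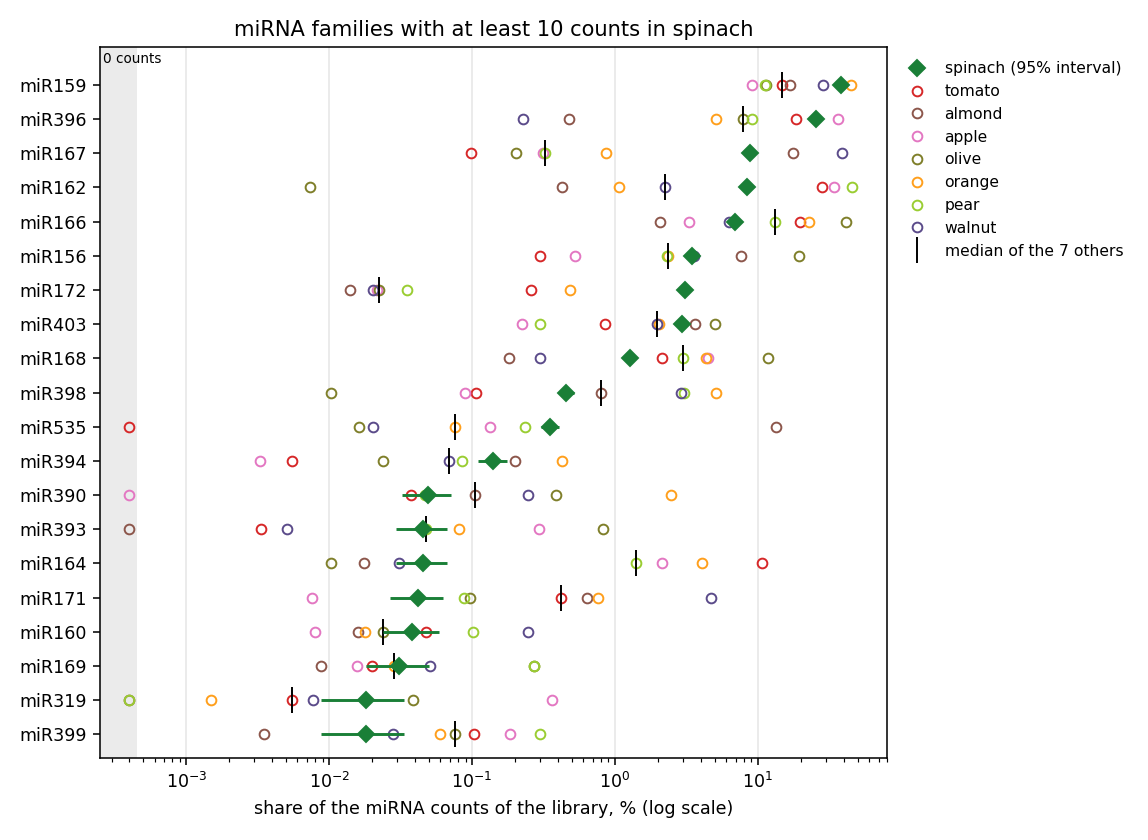
Share of the miRNA counts of each library held by the families with at least 10 counts in spinach (percent, log scale). Filled diamonds are spinach with 95% counting intervals, open circles are the 7 other foods, black ticks are their median, and the grey strip holds libraries without a count. The spinach diamond of miR172 lies to the right of all circles, at 3.06%.

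A gene or family was called above the range when its share in spinach was higher than in each of the 7 other foods and its interval did not overlap that of the highest of them, and below the range by the same rule at the low end. Genes with at least 10 counts in spinach, or a median share of at least 0.01% in the other foods, were compared. Of these 55 genes, 3 were above the range (5.45%): MIR396b, MIR172c and MIR172d. MIR166e was below it (1.82%). Of 25 families, miR172 was above the range (4%) and miR482 below it (4%). The same rule applied to each other food in turn called between 4 genes (tomato) and 29 genes (almond) above the range, so that spinach had the fewest. MIR172c, miR172, MIR166e and miR482 kept their calls in all 16 alternative settings. MIR396b and MIR172d lost theirs when the libraries were scaled by the deposited normalization, by TMM or by either kind of DESeq2 factor. With the default DESeq2 factors 1 gene was above and 3 were below the range. Of the 55 genes, 8 were compared only because of their count in spinach, MIR172c among them, and lay above the median of the other foods for that reason. Counts of genes above and below the median are therefore given for the other 47, of which 20 were above and 27 below.

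The miR172 family, which acts on AP2-like transcription factors and is known for its rise as plants leave the juvenile phase and approach flowering, held a larger share in spinach than in any other food. It had 1683 counts in spinach, 3.06% of the library (2.92% to 3.21%), against 0.258% in tomato, 0.0140% in almond, 0.0217% in apple, 0.0222% in olive, 0.480% in orange, 0.0349% in pear and 0.0204% in walnut. The spinach share was 6.38 times that of orange, the next highest (5.66 to 7.21). The 5 foods other than tomato and orange lay close together, at 0.0349% or less. In percentage points the distance between spinach and orange was larger than the whole spread among the 7 other foods, whereas in folds those foods differed more among themselves.

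A single copy carried most of this. MIR172c (G6:4926841-4927008, minus strand) had 1429 counts in spinach, 2.60% of the library (2.47% to 2.74%), against 132 in tomato, 9 in apple, 7 in orange, 3 in pear, 1 in walnut and none in almond and olive. In tomato, the next highest, its share was 0.146%, and the spinach share was 17.9 times as high (14.9 to 21.5). MIR172c made up 84.9% of the miR172 counts in spinach (83.1% to 86.6%), 56.4% in tomato and 2.17% in orange. The orange counts of the family were mostly on MIR172a and MIR172d, so that the counts of the foods with the highest family shares were not divided alike over the peach copies.

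MIR172d (G2:25860595-25860713, plus strand) was also above the range, with 219 counts or 0.399% in spinach (0.348% to 0.455%). The other foods had 152 counts in orange, 19 in tomato, 19 in pear, 14 in apple, 8 in olive, 6 in walnut and none in almond. Spinach stood 1.76 times above orange (1.42 to 2.18), a far smaller distance than for MIR172c. MIR172a, with 21 counts or 0.0382% in spinach, was lower there than in orange (0.243%) and tomato (0.0916%). MIR172b had 14 counts in spinach (0.0255%), 11 in pear, 2 in almond and none in the other foods, and the intervals of spinach and pear overlapped.

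**Figure D2:**
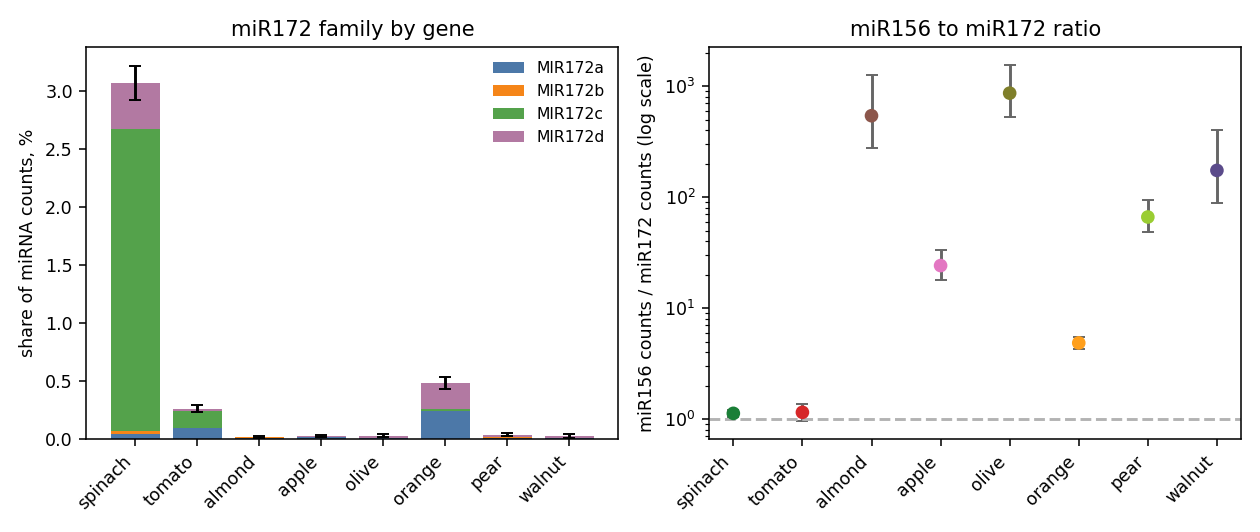
Share of the miR172 family in each library (bars stacked by gene, linear scale) and ratio of miR156 to miR172 counts within each library (log scale), spinach first, with 95% counting intervals. Spinach has the highest miR172 share, at 3.06%, and its ratio of 1.13 lies beside that of tomato, at 1.15, below the other 6 foods.

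The miR156 family holds plants in the juvenile phase by acting on SPL transcription factors, and miR172 acts later in the same pathway. Their ratio within a library needs no scaling between foods. It was 1.13 in spinach (1.06 to 1.21), against 1.15 in tomato (0.965 to 1.38) and 4.87 in orange (4.32 to 5.51). In the other foods miR156 outnumbered miR172 by far, with a ratio of 24.2 in apple, 66.4 in pear, 175 in walnut, 543 in almond and 867 in olive. The spinach ratio was 0.979 of that of tomato (0.808 to 1.19) and 0.232 of that of orange (0.202 to 0.266). The closeness to tomato rested on 1 gene, mir-156 (ENSRNA050003808), which held 209 of the 270 miR156 counts in tomato. With peach-named genes only, the ratio was 0.929 in spinach and 0.261 in tomato, and without the leading gene of each family 3.34 in spinach and 0.598 in tomato. The levels of both foods were far apart, since miR156 held 3.46% of the spinach library and 0.298% of the tomato library.

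With 1901 counts, miR156 itself was not set apart in spinach. Its share ranked 4 of 8 foods, below olive with 19.2% and above the median of the other foods, 2.34%, though below that median with the deposited normalization, TMM and both kinds of DESeq2 factor. The spinach counts were spread over more copies than those of miR172. MIR156e held 55.4% of them, MIR156f 20.1% and the gene mir-156 (ENSRNA050003808) 17.7%. MIR156e had 1053 counts or 1.92% in spinach, close to pear (1.77%), below almond (5.90%) and above the remaining foods, with no count in tomato.

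MIR156f (383 counts, 0.697% in spinach) was lower than in orange (1.02%) and higher than in the other 6 foods, which had 0.0798% or less. It lies 423 bases from MIR156h on the same strand of G3 in peach, which had 44 counts in spinach. MIR156b, which made up most of the miR156 counts in olive (91.1%) and 51.2% in apple, had no count in spinach although it was counted in all 7 other foods. The related miR535, which acts on SPL genes as well, had 193 counts or 0.351% in spinach, all on MIR535b, against a range of 0 (tomato) to 13.4% (almond). Of the genes in these 3 families, 13 were compared, 4 of them only because of their spinach count. Of the other 9, 7 were above the median of the other foods and 2 below it, also under the 6 other scalings, against 20 and 27 of all 47 such genes. Over all 47, between 15 and 19 were above under those scalings.

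**Figure D3:**
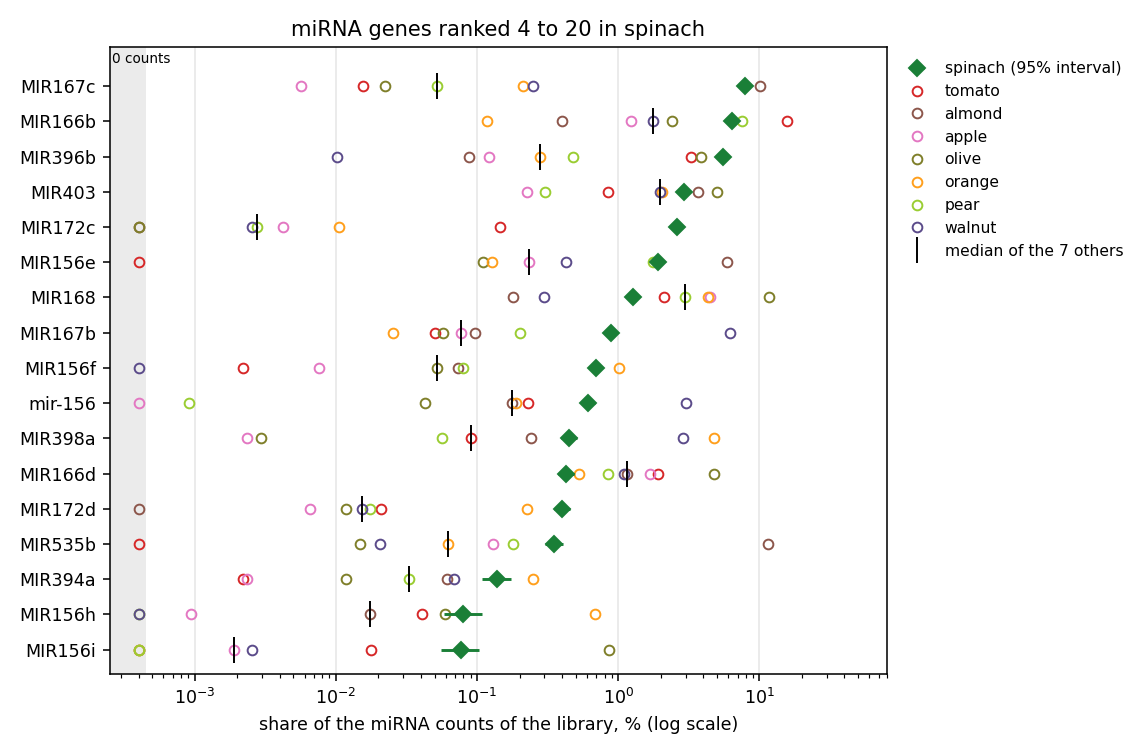
Share of the miRNA counts of each library held by the genes ranked 4 to 20 in spinach (percent, log scale), with spinach as filled diamonds with 95% counting intervals, the other foods as open circles and their median as a black tick. MIR396b, MIR172c and MIR172d have the spinach diamond to the right of all circles, while for MIR167c almond, at 10.1%, lies to its right and the other 6 foods lie at or below 0.25%.

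Families that act in leaf growth and shape held 71.0% of the spinach counts, against a median of 51.4% and a range of 20.1% to 78.1% in the other foods. Most of the spinach share came from miR159, which acts on GAMYB-like transcription factors, and from miR396, which restrains cell division in leaves through the GRF transcription factors. Of the 51 genes on this list 29 were counted in spinach. Of the 18 that were compared for their level in the other foods, 5 were above the median of those foods and 13 below it. Of all 47 such genes 20 were above and 27 below. Under the 6 other scalings between 3 and 5 of the 18 were above. Spinach thus had a high sum on few genes of the list. Of its 20 compared genes 1 was above the range and 1 below it, against 3 and 1 of all 55.

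MIR396b (G7:21072692-21072802, plus strand) was the gene above the range. It had 3054 counts in spinach, 5.56% of the library (5.37% to 5.76%), against 3.28% in tomato, 0.0877% in almond, 0.122% in apple, 3.85% in olive, 0.279% in orange, 0.482% in pear and 0.0102% in walnut. The spinach share was 1.44 times that of olive (1.37 to 1.52), and olive and tomato were the only foods near it. MIR396b gave 21.6% of the miR396 counts in spinach, 17.6% in tomato and 49.1% in olive, and nearly all the rest came from MIR396, which lies 4798 bases away on the other strand. As a family, miR396 was not above the range, since 25.7% in spinach stood below 36.6% in apple.

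The miR166 family keeps the upper side of the leaf in place by acting on HD-ZIP III transcription factors. It had 3776 counts or 6.87% in spinach, the fifth of the 8 foods, against a median of 13.1% and up to 41.5% in olive. Without the 3 highest genes of each library the direction turned, with 20.6% in spinach against a median of 15.8%. This was in part built in. The step took the largest miR166 gene out of tomato, olive and orange and no miR166 gene out of spinach. In orange the family fell from 22.7% to 3.07%. The spinach counts of the family were divided over the peach copies in an uneven way. MIR166b (G8:20544987-20545082, plus strand) held 92.9% of the family's counts in spinach (92.0% to 93.7%), 79.2% in tomato and 57.0% in pear.

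MIR166e (G5:12576396-12576555, plus strand) had no count in spinach. It had 583 counts in tomato, 163 in almond, 350 in apple, 7409 in olive, 180 in orange, 5178 in pear and 1135 in walnut. Against a limit of 3 counts in the spinach library, its share was at least 30.2-fold lower than in apple, the lowest of the others, and at least 118-fold lower than their median. MIR166d (235 counts, 0.428% in spinach) was also lower than in every other food, but its interval of 0.375% to 0.486% overlapped that of orange (0.525%). MIR166a had 34 counts in spinach, 0.0619% against a median of 0.487%, and its share was lower in pear alone.

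Of the other leaf families, miR164 and miR171 lay below the median of the other foods in spinach. The miR164 family, which acts on NAC genes that shape organ borders and leaf margins, had 25 counts or 0.0455%, against a median of 1.39% and 10.7% in tomato. Walnut (0.0306%), almond (0.0175%) and olive (0.0104%) were lower than spinach. The miR171 family, which acts on GRAS genes of shoot meristems, had 23 counts or 0.0419% against a median of 0.416%, and apple alone was lower. MIR394a, of a family that acts on an F-box gene of leaf curvature and the shoot meristem, had 76 counts or 0.138% in spinach, below orange (0.248%) and above the other 6 foods. Of the miR319 family, which acts on TCP genes of leaf shape, spinach had 10 counts (0.0182%), all on MIR319a, against a median of 0.00552% and up to 0.360% in apple. The miR169 family, which acts on NF-YA genes, had 17 counts or 0.0310%, against a median of 0.0284%. Both lay inside the range of the other foods.

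Of the auxin families, miR167 was the large one in spinach. It acts on the auxin response factors ARF6 and ARF8 and had 4870 counts or 8.87%, below walnut (39.0%) and almond (17.6%) and above the other foods. The median of the other foods was 0.323%, and spinach stayed above it under all 6 other scalings. The spinach share was 27.5 times that median, but the foods fell far apart on this family, and the other 5 had 0.858% or less.

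MIR167c (G6:29520818-29520928, plus strand) ranked 4 in count among the genes of the spinach library. It had 4368 counts in spinach, 7.95% (7.73% to 8.18%), against 0.0154% in tomato, 10.1% in almond, 0.00566% in apple, 0.0222% in olive, 0.212% in orange, 0.0523% in pear and 0.25% in walnut. Spinach and almond stood far above the other 6 foods, and the spinach share was 0.786 of that of almond (0.755 to 0.817). MIR167c gave 89.7% of the miR167 counts in spinach (88.8% to 90.5%) and 57.6% in almond. In walnut 83.3% came from MIR167d, which gave 0.267% in spinach (13 counts). MIR167b had 489 counts or 0.890% in spinach, below walnut (6.20%) and above the other 6 foods.

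The other auxin families had few counts in spinach and lay inside the range of the other foods. The miR390 family, which triggers tasiRNAs against further auxin response factors, had 27 counts or 0.0492%, against a median of 0.105%. The miR393 family, which acts on the TIR1 and AFB auxin receptors, had 25 counts or 0.0455%, close to the median of 0.0477%. The miR160 family, which acts on ARF10, ARF16 and ARF17, had 21 counts or 0.0382%, against a median of 0.0237%, and fell below the median with the deposited normalization, TMM and both kinds of DESeq2 factor. The second MIR390 gene of the table (ENSRNA050003783), which held 2.44% of the orange counts, had none in spinach. Of the 8 auxin genes compared for their level in the other foods, 5 were above the median of those foods and 3 below it. With both kinds of DESeq2 factor 3 were above and 5 below. Of all 47 such genes 20 were above and 27 below.

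The families that act on the small RNA machinery itself are miR162, which acts on DCL1, miR168, which acts on AGO1, and miR403, which acts on AGO2. Together they held 12.6% in spinach, against a median of 16.8% and a range of 4.24% to 49.0% in the other foods. MIR403 had 1606 counts or 2.92% in spinach, below olive (5.03%) and almond (3.64%) and above the other foods. Its log2 fold over the median of the other foods was 0.57, but -0.87 with the deposited normalization and -0.06 with default DESeq2 factors. MIR168 had 695 counts or 1.27%, sixth of the 8 foods. The ratio of miR168 to miR403 was 0.433 in spinach (0.395 to 0.473), against 2.51 in tomato, 0.0496 in almond, 19.97 in apple, 2.33 in olive, 2.12 in orange, 9.91 in pear and 0.152 in walnut. Spinach was thus on the side of almond and walnut, with more miR403 than miR168, and the remaining foods were on the other.

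The nutrient families were a small part of the spinach library, with 280 counts or 0.510%, against a median of 1.15% and a range of 0.314% to 7.22% in the other foods. Nearly all came from MIR398a, of a family that acts on copper/zinc superoxide dismutases when copper is short. It had 247 counts or 0.450% in spinach, against 0.0905% in tomato, 0.240% in almond, 4.78% in orange, 2.89% in walnut and 62 or fewer counts in apple, olive and pear. MIR398a gave 98.4% of the miR398 counts in spinach, 100% in walnut, 93.2% in orange and 85.4% in tomato. It gave 2.63% in apple and 1.86% in pear, and almond and olive lay between tomato and apple.

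The phosphate and sulfate families had few counts in spinach. The miR399 family, which acts on the PHO2 gene, had 10 counts on 2 of its 20 genes, 9 of them on the gene counted in spinach only. The miR395 family, which acts on sulfate assimilation genes, had 9 counts, all on 1 of its 15 genes. The miR827 family, which acts on SPX-domain genes of phosphate balance, had 8 counts, and miR397, which acts on laccases, had none. Of the 44 nutrient genes 8 were counted in spinach. Only 5 were compared, of which 1 was above the median of the other foods and 4 below it. Of all 47 genes compared for their level in the other foods, 20 were above and 27 below.

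Outside these lists little was left in spinach. The 62 other families, miR482 among them, held 18 counts or 0.0328% of the spinach library, against a median of 8.11% and a range of 0.806% to 35.8% in the other foods. Families numbered 6000 or higher, most of them described in few plants, had 9 spinach counts on 6 genes. The miR482 family had 6 counts in spinach, 0.0109% (0.00401% to 0.0238%), against 3.73% in tomato, 16.9% in almond, 7.70% in apple, 0.457% in olive, 0.776% in orange, 7.18% in pear and 8.55% in walnut. At 0.0239 of the olive share (0.00871 to 0.0526), spinach was below the lowest of the other foods. All 6 were on MIR482c, and MIR482f, the gene of the first sequence shown above, had no count in spinach and 3384 in tomato. By qPCR, a measure other than sequencing counts, the study did detect both miR482f and miR482c-5p in spinach.

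A total of 118 genes had no count in spinach and at least 1 elsewhere. Of these, 12 had a median share of at least 0.01% in the other foods: MIR166e, MIR482f, MIR156b, MIR390 (ENSRNA050003783), MIR399b, MIR399a, MIR7122a, MIR164b, MIR530, MIR171a, MIR167a and MIR156c. The first 2 had medians of 0.643% and 0.679%, and the others 0.0743% or less. The spinach share of MIR156b was at least 13.6-fold lower than the median of the other foods, and that of MIR390 at least 7.73-fold. For the remaining 8 the bound lay between 2.07-fold and 4.24-fold, so that this depth says little of them. MIR166e, MIR156b, MIR167a, MIR171a and MIR530 were the 5 genes counted in all 7 other foods and not in spinach. Most of the 12 belong to families that were counted in spinach through another copy.

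**Figure D4:**
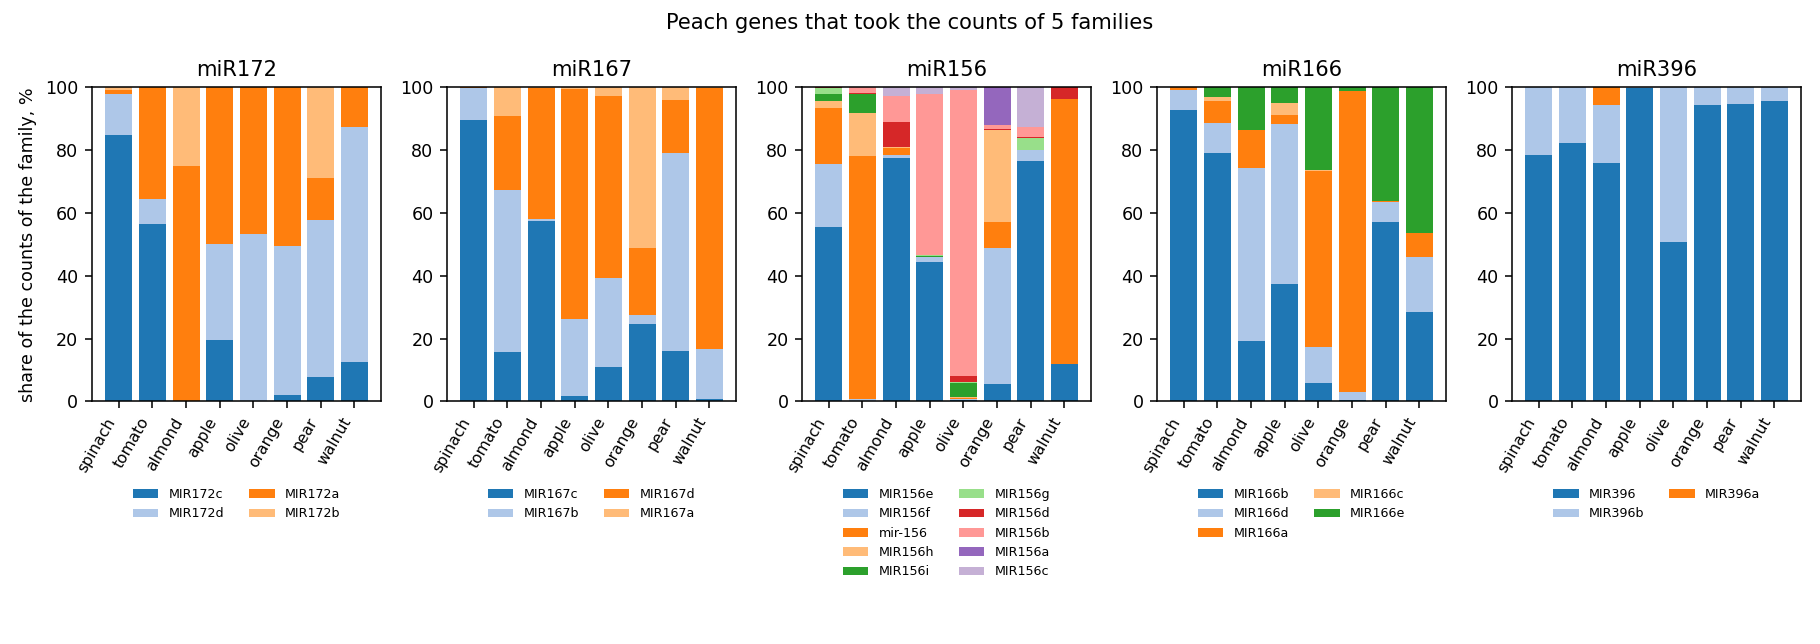
Percent of a family's counts on each of its peach genes in each library, with spinach at the left. Shown are families in which 1 peach gene took most of the spinach counts, or in which these were divided in another way than in other foods. In spinach MIR172c holds 84.9% of miR172, MIR167c 89.7% of miR167 and MIR166b 92.9% of miR166, while MIR156e holds 55.4% of miR156.

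How the counts of a family fell on its peach copies was compared over 17 families with several genes and at least 10 counts in spinach. Which copies the foods themselves have or use was not tested. In 11 of them 1 gene held 80% or more of the spinach counts. For miR164 (25 counts), miR319 (10) and miR399 (10) the intervals reached down to 68.8%, 69.2% and 55.5%. Single genes passed 80% in other foods too, as did mir-156 for miR156 (84.3%) and MIR167d for miR167 (83.3%) in walnut. In how many families this was so in each other food was not counted. The gene that led in spinach also led in pear in 7 of 16 families with at least 10 counts in pear, and in apple in 7 of 15. It did so in 6 of 13 families in tomato, 6 of 13 in walnut, 6 of 15 in olive, 6 of 16 in orange and 5 of 11 in almond. By these tallies no food shared the leading gene with spinach in most of the families compared, but some rested on 1 count or a tie. MIR160a led MIR160b in tomato by 22 counts to 21, and MIR393b led MIR393a in spinach by 13 to 12. In orange MIR169a, MIR169b and MIR169j had 5 counts each, which was taken as not shared. Whether any food shares most leading genes with spinach is therefore not settled. Among foods with at least 10 counts of the family, the leading gene of miR172 in spinach led in tomato alone, and that of miR167 in almond alone. The leading gene of miR159 and that of miR396 led in all 8 foods.

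The overlap of 2 profiles is the sum over genes of the smaller of both shares, with 100% for identical profiles. Spinach overlapped most with tomato (51.4%) and orange (50.7%), and least with olive (26.3%). Without the 3 highest spinach genes, the overlap was 36.3% with tomato, 34.1% with pear and 14.8% to 26.4% with the other foods. By family the order was another one. The overlap was then highest with orange (59.1%), walnut (52.7%) and tomato (51.6%), and without the highest spinach genes with olive (46.4%) and walnut (46.0%). Spinach and tomato shared 54 counted genes, 78.3% of those of spinach and 50.9% of those of tomato.

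With the 3 highest genes of each library left out, the order within the rest of spinach was miR167 (26.6%), miR166 (20.6%), miR396 (16.7%), miR156 (10.4%), miR172 (9.18%) and miR403 (8.76%). Several of these were higher in some other food: miR167 in almond (27.7%), miR166 in olive (38.4%) and pear (36.4%), miR156 in almond (12.0%) and miR403 in olive (10.6%). Walnut was level with spinach for miR156 (10.4%). Here too the order of foods was in part built in by the step. By it, miR167 fell from 39.0% to 19.0% in walnut and miR156 from 19.2% to 3.59% in olive. The miR172 share remained the most distant from the other foods, the next being orange with 1.61%.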

How the data were processed

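The deposited values were raw counts, which the authors obtained per miRNA gene of the peach annotation NCBIv2 with miRBase 22 and left unnormalized. Per the methods, adapters were removed with skewer, reads of 15 to 30 bases were aligned with ShortStack to peach, allowing up to 2 mismatches in the seed, and counted by strand with HTSeq. A second deposited table holds a signal, namely counts after division by the DESeq2 factor of the library (21.5 for spinach), and served as an alternative scaling only. No column of another sample was found.

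Shares were percent of all miRNA counts of a library (39249 to 212021 counts), with Clopper-Pearson 95% intervals and conditional binomial intervals for ratios. The limit for a count of 0 was 3 counts. Without replicates no test between foods was run and no p-value is given. Dixon's criterion was applied across the 8 libraries to find values that stood apart. Alternatives were edgeR 4.0.16 TMM, DESeq2 1.42.0 factors (default and poscounts), the deposited normalization, leaving out the highest gene or the 3 highest, other count minimums, genes with peach names only, and leaving out each food. Named were genes ranked 4 to 20 in spinach, those above or below the range, those at 0 in spinach with a median of at least 0.01% elsewhere and those counted in spinach only. MIR172a, MIR172b, MIR166a, MIR167d and other copies were named because of their families. The members and family lists were chosen with earlier results of these data known. The calculations were tested on simulated data. Software was R 4.3.3, Python 3.11.15 and its packages scipy 1.17.1, pandas 2.3.3, numpy 2.4.6 and matplotlib 3.10.9. No peach genome was used.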

Additional observations from a re-analysis of the deposited data

Results flagged for a closer look

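Spinach lay apart from the 7 other libraries in 2 of 41 measures by Dixon's criterion, in which the gap between the highest or lowest library and the next is divided by the range of all 8. The measures were the share of MIR172c, at 2.60% of the spinach library with a gap of 0.944 of the range, and the share of the miR172 family that contains it, at 3.06% with a gap of 0.847. The 2 measures are not independent, since most miR172 counts in spinach are MIR172c counts. In another 22 of the 41 measures a library other than spinach lay apart. The genes and families among the measures were chosen by their counts in spinach, MIR172c among them. Chance alone sets a library apart in about 1 in 20 such measures if the values follow a normal distribution. Whether they do was not tested, so that this rate is no yardstick for the values found here.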

How the results depend on the processing

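No paired analysis was possible because each food had 1 library. The genes above the range numbered 3, against 5 without the 3 highest genes or without the highest gene, and 1 with default DESeq2 factors, and lay between 3 and 6 when 1 food was left out. Genes below it numbered 1, against 2 without the 3 highest genes, without the highest gene, with the deposited normalization, TMM or DESeq2 poscounts factors, and 3 with default factors (1 to 2 with 1 food left out). By construction, a gene left out as one of the highest of a library counts as 0 there. Families above the range numbered 1, against 2 without the highest gene or with peach-named genes only (1 to 2 with 1 food left out), and families below it 1, against 2 without the 3 highest genes, without the highest gene or with the deposited normalization (1 to 2). Genes detected fell to 33 with a minimum of 10 counts. The ratio of miR156 to miR172 was 0.929 with peach-named genes only, 3.34 without the leading gene of each family and 1.24 with miR535 added to miR156. MIR166d was below the range in 7 of 16 settings, among them all 6 other scalings, and MIR167c above it in 5, 4 of them scalings. The cause of these changes was not tested.

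Without orange MIR394a, MIR156f and MIR159 joined the genes above the range, without walnut MIR167b and mir-156, without almond MIR167c and MIR535b, without apple MIR396, without pear MIR172b and without olive MIR156i. MIR167d was below it without tomato. Scaling moved the median log2 fold of the compared genes by -1.18 with the deposited normalization, -0.68 with TMM, -1.30 with default and -0.54 with poscounts factors. None of the genes and families called above or below the range in the main comparison changed direction. Several of the others did. With the deposited normalization MIR166b turned to -0.42 (log2 over the median), miR159 from 1.38 to -0.11, miR162 from 1.90 to -0.11 and miR169 from 0.13 to -2.60. With default DESeq2 factors miR159 turned to -0.21. It turned to -5.02 without the 3 highest genes and to -7.49 without the highest gene, and was then called below the range. Both steps took MIR159, the highest gene of the spinach library, out of it. Without the 3 highest genes miR398 turned to 0.12. With 54924 counts and 1 library, spinach genes under 10 counts are known only within wide counting error.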
